A study of Homo sapiens with 8 samples.

Results

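The surface antigens of myeloma cells that serve as diagnostic markers or as therapy targets were followed across both cell lines and all treatments of the series. They were CD38, SDC1 (CD138), TNFRSF17 (BCMA), SLAMF7, GPRC5D, FCRL5, CD27, CD46, LY9 and TNFRSF13B (TACI), 10 of the 19775 genes that the array annotation names with a single symbol. Every probe set with 1 of these symbols as its only gene was kept, whatever its values, which gave 21 probe sets. A probe set is the group of oligonucleotides that measures 1 stretch of a transcript. SDC1, SLAMF7, FCRL5, CD46 and LY9 had more than 1 probe set, and the other 5 genes had 1 each.

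RNA came from JJN3 and RPMI-8226, established lines grown from human multiple myeloma, a cancer of plasma cells, and was hybridised to 8 Affymetrix arrays, 1 for each line and treatment. The treatments were a lentivirus carrying an shRNA against XBP1, a lentivirus carrying an shRNA against IRE1, whose gene is ERN1, a lentivirus carrying a non-targeting shRNA (NT shRNA), and no infection. Infected cultures were exposed to virus for 16 h with 8 µg/mL polybrene, and cells were harvested at 96 h, as the protocols in the labels state. Each treatment was thus measured once in each line (n = 2), and p-values between treatments measure only the spread between these lines. The uninfected cells had no exposure to virus, and no polybrene is stated for them. They and the NT shRNA cells thus differ by the virus and the infection procedure as well as by the shRNA. How many viral clones, integrations or separate infections a culture holds was not given in the sources used here.

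IRE1 is a sensor of unfolded proteins in the endoplasmic reticulum, and its RNase splices the XBP1 transcript into the form that encodes an active transcription factor. XBP1 acts late in the making of plasma cells, where it raises the genes of the secretory pathway. The antigens described here mark that late stage or the B cells before it: SDC1, CD38, TNFRSF17, SLAMF7, GPRC5D and FCRL5 are found on plasma cells, CD27 on memory B cells and many normal plasma cells, TNFRSF13B and LY9 on mature B cells as well as plasma cells, and CD46 on nearly every nucleated cell. The comparisons ask whether transcripts of these antigens differ when IRE1 or XBP1 is silenced, and how far the lines differ in them.

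Values were centred before deposit: each probe set had a median of 0 over the 8 arrays. They are read here as log2 units, and they show differences between arrays but neither the level of an antigen nor whether it was above background. The plasma cell identity of the lines could therefore not be checked from the markers' levels. The medians of the arrays lay between -0.055 and 0.058. XBP1 itself (200670_at) stood at 45.6% of the NT shRNA value on the JJN3 array labelled XBP1 shRNA and at 65.9% on that of RPMI-8226. ERN1 (235745_at) stood at 53.9% of the NT shRNA value on the JJN3 array labelled IRE1 shRNA but at 129.8% on that of RPMI-8226, which goes against the label of that RPMI-8226 array when NT shRNA is the comparator. Against uninfected RPMI-8226 cells ERN1 on the same array stood at 64.1%. The NT shRNA array of RPMI-8226 itself stood at 49.4% of uninfected on this probe set, and that of JJN3 at 95.7%. The 129.8% is thus set against a low NT shRNA value. ERN1 was also low on the arrays labelled XBP1 shRNA, at 42.9% of NT shRNA in JJN3 and 36.7% in RPMI-8226, and XBP1 on the arrays labelled IRE1 shRNA stood at 16.8% in JJN3 and 64.7% in RPMI-8226. None of these differences from NT shRNA passed the threshold in limma (adjusted p from 0.0926 to 0.894). With XBP1 shRNA, the other XBP1 probe set, 242021_at, stood at 102.3% of NT shRNA in JJN3 and 87.1% in RPMI-8226. With IRE1 shRNA, ERN1 207061_at stood at 114.3% and 88.6%, and ERN1 227755_at at 44.7% and 117.1%, in the same order. These did not pass in limma either (adjusted p from 0.728 to 0.995). Against uninfected cells, ERN1 was lower on the arrays labelled XBP1 shRNA (-2.04 on 227755_at, adjusted p = 0.0210, and -1.88 on 235745_at, adjusted p = 0.0296), while XBP1 there and both genes on the arrays labelled IRE1 shRNA did not pass. In JJN3, each target stood lower on the array of the other shRNA. ERN1 (235745_at) was at 42.9% with XBP1 shRNA and 53.9% with IRE1 shRNA. XBP1 (200670_at) was at 16.8% with IRE1 shRNA and 45.6% with XBP1 shRNA. Because of the ERN1 value in RPMI-8226, differences of IRE1 shRNA from NT shRNA are also given without that line's IRE1 shRNA array. The same holds for the differences from XBP1 shRNA that are described. In those fits IRE1 shRNA rests on the JJN3 array alone, so their p-values hold no spread of IRE1 shRNA between the lines. Leaving out that array does not address the JJN3 values or the low ERN1 value on the NT shRNA array of RPMI-8226.

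Promoter windows, from 250 bases before to 50 bases after the RefSeq start, were searched because XBP1 is a transcription factor with known binding letters. RefSeq (GRCh38.p14) gave windows for 7 of the 10 genes, 9 windows in all, and TNFRSF17, SLAMF7 and LY9 were not among them. On both strands, the letters ACGTG, the core of the XBP1 site, were in the windows of 0 of the 7 genes, against 21.4% of 35116 windows. CCACG, the part of the endoplasmic reticulum stress element that XBP1 and ATF6 bind, was in the windows of 3 genes, CD38, SDC1 and CD46, against 38.1% of all windows. CCAAT, the NF-Y part of that element, was in those of 5 genes (CD38, CD46, FCRL5, GPRC5D and TNFRSF13B), against 34.6%. The letters of the motifs do not overlap one another in the windows printed. A window with CCACG is printed for each of these 3 genes, 5′ to 3′ on the gene's strand, with CCACG in capitals. The first base of CCACG lies at -75 from the start in CD38, at -8 in SDC1 and at 27 in the CD46 window printed. Another CD46 window, chr1:207751804-207752103, also holds CCACG, at 11 from its start, and is not printed. The window of CD38 is chr4:15778078-15778377 on the plus strand, that of SDC1 is chr2:20225426-20225725 on the minus strand, and that of CD46 is chr1:207751788-207752087 on the plus strand.
CD38: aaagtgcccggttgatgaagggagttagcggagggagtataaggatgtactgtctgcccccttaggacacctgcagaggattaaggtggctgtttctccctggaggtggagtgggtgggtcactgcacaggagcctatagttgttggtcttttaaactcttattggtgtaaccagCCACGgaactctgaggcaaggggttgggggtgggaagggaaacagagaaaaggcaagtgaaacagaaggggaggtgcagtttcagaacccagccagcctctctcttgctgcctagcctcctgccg
SDC1: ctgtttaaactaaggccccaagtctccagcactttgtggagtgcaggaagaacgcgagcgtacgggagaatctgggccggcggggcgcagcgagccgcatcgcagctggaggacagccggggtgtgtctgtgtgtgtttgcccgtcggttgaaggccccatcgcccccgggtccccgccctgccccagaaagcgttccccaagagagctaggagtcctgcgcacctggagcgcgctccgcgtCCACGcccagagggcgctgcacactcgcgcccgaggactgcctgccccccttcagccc
CD46: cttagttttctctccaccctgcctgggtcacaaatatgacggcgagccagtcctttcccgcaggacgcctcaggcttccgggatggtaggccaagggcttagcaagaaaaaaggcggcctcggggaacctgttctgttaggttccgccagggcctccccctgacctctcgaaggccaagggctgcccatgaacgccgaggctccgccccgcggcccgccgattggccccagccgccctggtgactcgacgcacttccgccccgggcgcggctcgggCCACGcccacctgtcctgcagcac
These matches describe letters only. No binding was measured.

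The largest differences among the antigens were between the lines. In limma with treatment as a block, 12 of the 21 probe sets differed between JJN3 and RPMI-8226 (Benjamini-Hochberg adjusted p below 0.05 over 54613 probe sets), 2 higher and 10 lower in JJN3. They cover 9 of the 10 genes, all but CD46, and 68.8% of all genes passed by their probe set of highest SD. The same threshold was passed by 56% of all probe sets, 22.8% of them higher and 33.3% lower in JJN3, so the share among the antigens was near the background. The 4 JJN3 arrays did not overlap the 4 RPMI-8226 arrays in 10 of the 21 probe sets, against 48.7% of all probe sets. The median difference of the 21 probe sets was -0.21 and that of all probe sets -0.14 (log2, JJN3 minus RPMI-8226). A sign of RNA quality moved with the line: the actin control probe sets differed, 3′ minus 5′, by 0.133 to 0.417 on the JJN3 arrays and by -0.614 to -0.432 on the RPMI-8226 arrays. Its part in the line differences was not tested. The arrays of a line differ in treatment, so the spread behind these tests holds treatment effects that the block does not take out. Line and culture cannot be told apart, since each line is a single source, and in bulk RNA fewer cells with a transcript and less of it per cell cannot be told apart either.

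**Figure D1:**
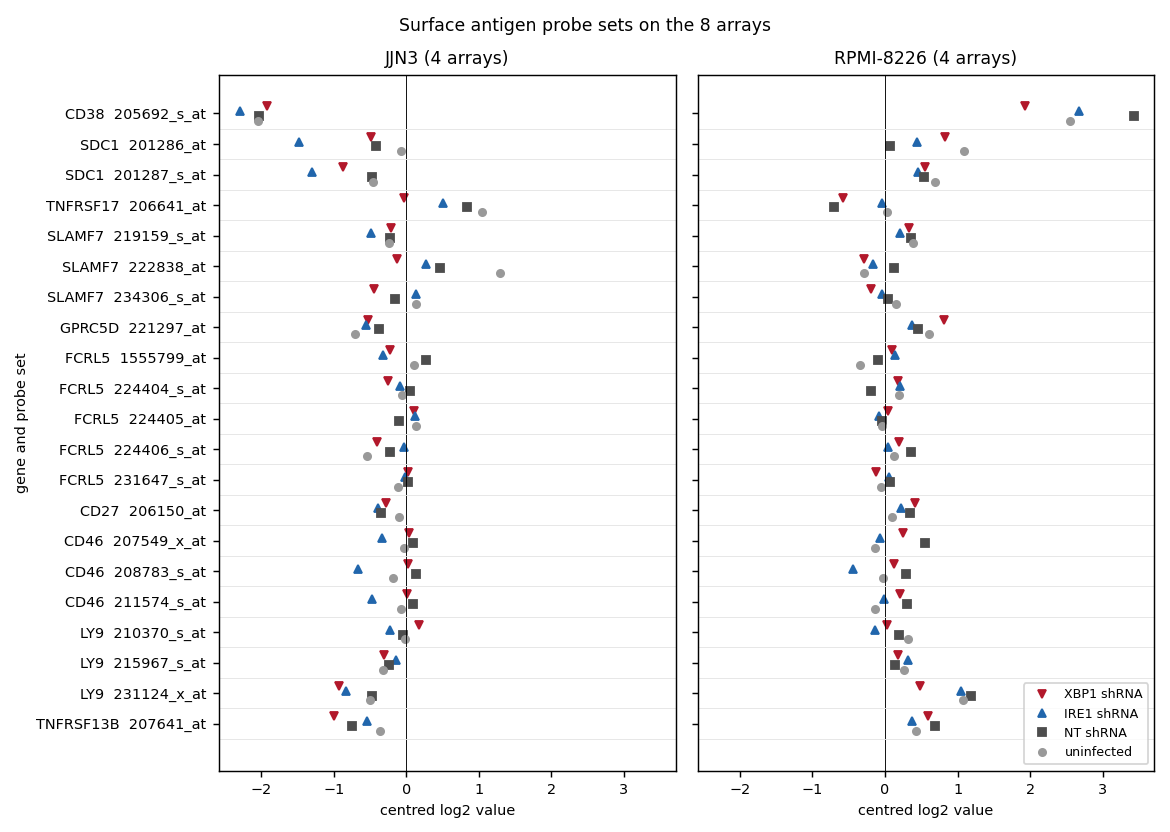
Centred log2 value of the 21 antigen probe sets on the JJN3 arrays (left panel) and the RPMI-8226 arrays (right panel), 1 symbol for each treatment. CD38 lies near -2 on every JJN3 array and between 1.92 and 3.43 on the RPMI-8226 arrays, while most other probe sets lie within 1 log2 unit of 0.

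CD38 is an ectoenzyme that consumes NAD and the target of the antibodies daratumumab and isatuximab. Its only probe set (205692_s_at) read -1.92 with XBP1 shRNA, -2.30 with IRE1 shRNA, -2.03 with NT shRNA and -2.04 without infection in JJN3. The RPMI-8226 arrays read 1.92 with XBP1 shRNA, 2.68 with IRE1 shRNA, 3.43 with NT shRNA and 2.55 without infection. The lines were far apart at every treatment, and the treatments spread more widely in RPMI-8226 than in JJN3. CD38 was lower in JJN3, with a difference of -4.72 ± 0.22 (log2, limma SE, 4 arrays a line, adjusted p = 2.64e-07), a fold of 26.3. Its difference lay between -5.01 and -4.47 when each array was left out in turn.

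SDC1 carries heparan sulfate chains that bind growth factors, and it is the antigen used to isolate plasma cells. Probe set 201286_at read -0.49 with XBP1 shRNA, -1.47 with IRE1 shRNA, -0.41 with NT shRNA and -0.07 without infection in JJN3, and 0.82, 0.43, 0.07 and 1.09 on the matching arrays of RPMI-8226. All JJN3 arrays were below all RPMI-8226 arrays, although the JJN3 uninfected and the RPMI-8226 NT shRNA arrays were close. The second probe set, 201287_s_at, read -0.87 with XBP1 shRNA, -1.31 with IRE1 shRNA, -0.47 with NT shRNA and -0.46 without infection in JJN3, and 0.55, 0.46, 0.53 and 0.69 on the matching arrays of RPMI-8226. SDC1 was lower in JJN3 on both, with a difference of -1.22 ± 0.19 on 201286_at (adjusted p = 0.000700) and of -1.34 ± 0.13 on 201287_s_at (adjusted p = 3.79e-05). The probe sets moved alike within the lines as well, with a Pearson correlation of 0.83 over the 8 arrays after each line's mean was subtracted. GPRC5D, an orphan G protein-coupled receptor targeted by talquetamab, read -0.52 with XBP1 shRNA, -0.55 with IRE1 shRNA, -0.38 with NT shRNA and -0.71 without infection in JJN3, and 0.81, 0.38, 0.46 and 0.61 on the matching arrays of RPMI-8226. The groups did not overlap, and GPRC5D (221297_at) was lower in JJN3, with a difference of -1.10 ± 0.12 (adjusted p = 6.40e-05), a fold of 2.15.

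Among the TNF receptor family members, the direction differed. TNFRSF17, or BCMA, binds the ligands BAFF and APRIL, supports plasma cell survival and is the target of several CAR T cell and bispecific products. It read -0.03 with XBP1 shRNA, 0.51 with IRE1 shRNA, 0.84 with NT shRNA and 1.05 without infection in JJN3, and -0.58, -0.05, -0.71 and 0.03 on the matching arrays of RPMI-8226. TNFRSF17 (206641_at) was higher in JJN3 at each treatment, by 0.92 ± 0.17 (adjusted p = 0.00146), a fold of 1.89, although the JJN3 array with XBP1 shRNA fell within the range of the RPMI-8226 arrays. TNFRSF13B, the TACI receptor for the same ligands, read -0.999 with XBP1 shRNA, -0.54 with IRE1 shRNA, -0.75 with NT shRNA and -0.37 without infection in JJN3, and 0.59, 0.37, 0.69 and 0.43 on the matching arrays of RPMI-8226. It was lower in JJN3, with a difference of -1.18 ± 0.15 (207641_at, adjusted p = 0.000145), with no overlap between the lines. CD27, the receptor for CD70, read -0.28 with XBP1 shRNA, -0.38 with IRE1 shRNA, -0.34 with NT shRNA and -0.10 without infection in JJN3, and 0.41, 0.23, 0.34 and 0.10 on the matching arrays of RPMI-8226. The groups again did not overlap, and CD27 (206150_at) was lower in JJN3, with a difference of -0.55 ± 0.12 (adjusted p = 0.00350).

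The SLAM family receptors of the set are SLAMF7, the target of elotuzumab, and LY9 (SLAMF3). The probe sets of SLAMF7 disagreed. SLAMF7 222838_at, the one with the highest SD, read -0.13 with XBP1 shRNA, 0.27 with IRE1 shRNA, 0.46 with NT shRNA and 1.29 without infection in JJN3, and -0.28, -0.17, 0.13 and -0.28 on the matching arrays of RPMI-8226. It was higher in JJN3 by 0.63 ± 0.21 (adjusted p = 0.0294), and the uninfected JJN3 array stood well above the rest. Without the uninfected array of either line, whose treatment then has no partner, the difference was 0.31 with an adjusted p of 0.0734, and without either array labelled IRE1 shRNA the adjusted p was 0.0579. SLAMF7 219159_s_at read -0.20 with XBP1 shRNA, -0.48 with IRE1 shRNA, -0.22 with NT shRNA and -0.24 without infection in JJN3, and 0.33, 0.20, 0.36 and 0.39 on the matching arrays of RPMI-8226. By this probe set, without overlap between the lines, SLAMF7 was lower in JJN3, with a difference of -0.61 ± 0.10 (adjusted p = 0.000692). The third probe set, 234306_s_at, differed by -0.07 ± 0.11 (adjusted p = 0.601). The direction of SLAMF7 between the lines is therefore unsettled on this array.

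LY9 231124_x_at had the widest spread of the LY9 probe sets and read -0.92 with XBP1 shRNA, -0.82 with IRE1 shRNA, -0.48 with NT shRNA and -0.51 without infection in JJN3. The RPMI-8226 arrays read 0.48 with XBP1 shRNA, 1.04 with IRE1 shRNA, 1.19 with NT shRNA and 1.07 without infection. LY9 was lower in JJN3, with a difference of -1.63 ± 0.11 on this probe set (adjusted p = 2.86e-06), with no overlap. On 215967_s_at it read -0.31 with XBP1 shRNA, -0.14 with IRE1 shRNA, -0.24 with NT shRNA and -0.32 without infection in JJN3, and 0.17, 0.31, 0.14 and 0.26 on the matching arrays of RPMI-8226. That difference was smaller, -0.47 ± 0.10 (adjusted p = 0.00297), also without overlap. The third LY9 probe set, 210370_s_at, differed by -0.13 ± 0.11 (adjusted p = 0.360).

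FCRL5, an Fc receptor-like protein and the target of cevostamab, had 5 probe sets, and 1 of them passed. On 224406_s_at it read -0.40 with XBP1 shRNA, -0.04 with IRE1 shRNA, -0.23 with NT shRNA and -0.54 without infection in JJN3, and 0.20, 0.04, 0.36 and 0.12 on the matching arrays of RPMI-8226. FCRL5 was lower in JJN3, with a difference of -0.48 ± 0.12 there (adjusted p = 0.00943), with the IRE1 shRNA arrays of the lines nearly touching. The other FCRL5 probe sets differed by between -0.19 and 0.10 (adjusted p from 0.239 to 0.981). CD46, which inactivates complement on the cell surface, had 3 probe sets, and its differences between the lines lay between -0.21 and -0.16 (adjusted p from 0.152 to 0.179), within the spread of the arrays.

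**Figure D2:**
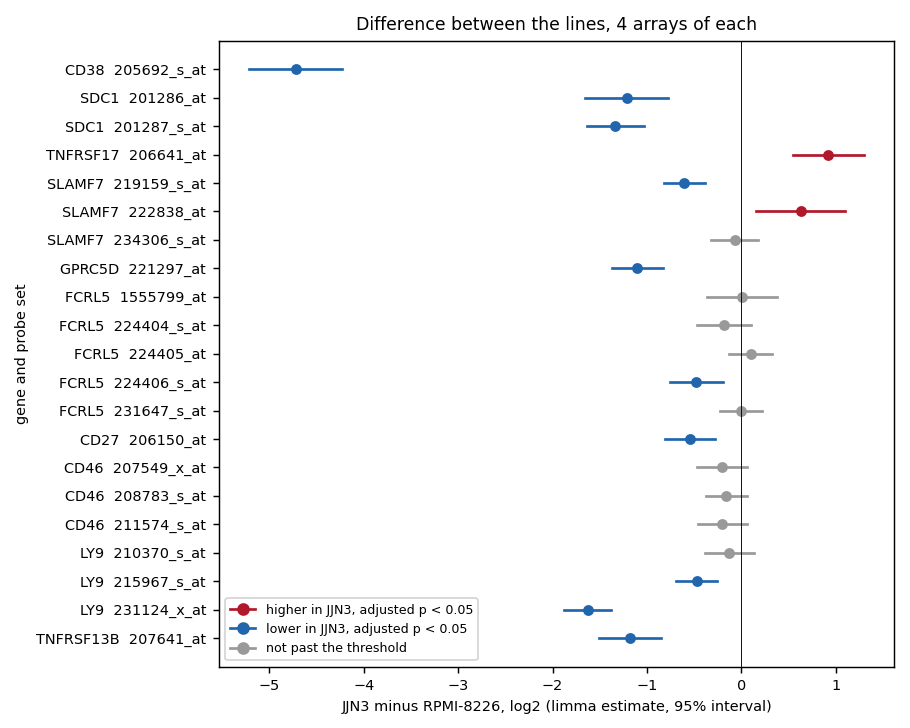
Difference between JJN3 and RPMI-8226 for each of the 21 antigen probe sets (log2, limma estimate with its 95% interval, 4 arrays a line), in red where higher in JJN3, in blue where lower and in grey where the threshold was not passed. CD38 stands apart at -4.72, TNFRSF17 and SLAMF7 222838_at are the probe sets higher in JJN3, and the 3 CD46 intervals cross 0.

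No antigen passed the threshold in any comparison that involves silencing or the virus. In limma with the cell line as a block, 0 of the 21 probe sets passed for XBP1 shRNA against NT shRNA, where 1.21% of all probe sets did, and 1 of the 21 had an unadjusted p below 0.05, against 13.7% of all probe sets. The 660 calls behind that 1.21% became 0 without the NT shRNA array of RPMI-8226 and 6 without that of JJN3. For IRE1 shRNA against NT shRNA, 0 of 21 passed, against 0.0183% of all, and 4 had an unadjusted p below 0.05, against 9.47% of all. Those 4 were the CD46 probe sets and SDC1 201287_s_at, so they are not 4 separate genes. For IRE1 shRNA against XBP1 shRNA, 0 of 21 passed, against 1.9% of all, and 4 had an unadjusted p below 0.05, against 13.7% of all. These 4 were of separate genes, CD46 208783_s_at, SDC1 201286_at, SLAMF7 234306_s_at and TNFRSF17 206641_at. SDC1 201286_at differed by -0.69 ± 0.27 (adjusted p = 0.297) and SLAMF7 234306_s_at by 0.38 ± 0.16 (adjusted p = 0.320). Without the RPMI-8226 array labelled IRE1 shRNA these were -1.15 and 0.54. The CD46 and TNFRSF17 values are given below. The first pair of comparisons shares the NT shRNA arrays, and the last shares an arm with each of them. With 2 arrays a treatment, differences of the size seen in single antigens had wide intervals, and a p that misses the threshold does not show that an antigen was equal between treatments.

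CD46 had the smallest adjusted p of the antigens on the arrays labelled IRE1 shRNA. On CD46 208783_s_at the JJN3 arrays read 0.02 with XBP1 shRNA, -0.67 with IRE1 shRNA, 0.14 with NT shRNA and -0.18 without infection, and the RPMI-8226 arrays read 0.12, -0.44, 0.29 and -0.02 in the same order. The IRE1 shRNA array had the lowest value of its line and the NT shRNA array the highest value in both lines. IRE1 shRNA minus NT shRNA was -0.77 ± 0.14 (limma SE, n = 2, 95% interval -1.08 to -0.46, adjusted p = 0.137), with -0.81 in JJN3 and -0.73 in RPMI-8226. Without the RPMI-8226 array labelled IRE1 shRNA, on which ERN1 was above NT shRNA, it was -0.81 (adjusted p = 0.181).

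The other CD46 probe sets gave smaller differences with the same sign in both lines. CD46 207549_x_at read 0.04 with XBP1 shRNA, -0.34 with IRE1 shRNA, 0.09 with NT shRNA and -0.04 without infection in JJN3, and 0.24, -0.07, 0.55 and -0.14 on the matching arrays of RPMI-8226. CD46 211574_s_at read 0.01 with XBP1 shRNA, -0.47 with IRE1 shRNA, 0.10 with NT shRNA and -0.07 without infection in JJN3, and 0.21, -0.01, 0.31 and -0.14 on the matching arrays of RPMI-8226. On both, the IRE1 shRNA array was the lowest of JJN3, but in RPMI-8226 the uninfected array was lower still. IRE1 shRNA minus NT shRNA was -0.52 ± 0.17 on 207549_x_at (adjusted p = 0.332) and -0.44 ± 0.16 on 211574_s_at (adjusted p = 0.411). With that RPMI-8226 array left out, these were -0.57 (adjusted p = 0.489) and -0.62 (adjusted p = 0.345). The 3 CD46 probe sets ran together, with Pearson correlations between 0.82 and 0.92 over the 8 arrays after each line's mean was subtracted. They share transcripts and arrays, so they are 1 observation of the gene.

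The size of the CD46 difference depends on the control. Against uninfected cells, IRE1 shRNA gave -0.45 ± 0.14 on CD46 208783_s_at (adjusted p = 0.494), -0.11 ± 0.17 on 207549_x_at (adjusted p = 0.957) and -0.14 ± 0.16 on 211574_s_at (adjusted p = 0.940). NT shRNA minus uninfected was itself between 0.31 and 0.41 on the 3 CD46 probe sets (adjusted p from 0.873 to 0.882). Against XBP1 shRNA, IRE1 shRNA gave -0.63 ± 0.14 on 208783_s_at, the lowest adjusted p of any antigen between 2 treatments, at 0.0562. Leaving out the RPMI-8226 array labelled IRE1 shRNA gave -0.67 (adjusted p = 0.186). On the JJN3 array labelled IRE1 shRNA, the median of the hybridisation control probe sets was 0.42, against -0.0047 to 0.0479 on the other JJN3 arrays. On the RPMI-8226 arrays it lay between -0.149 and 0.0879. Its part in the CD46 values was not tested.

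**Figure D3:**
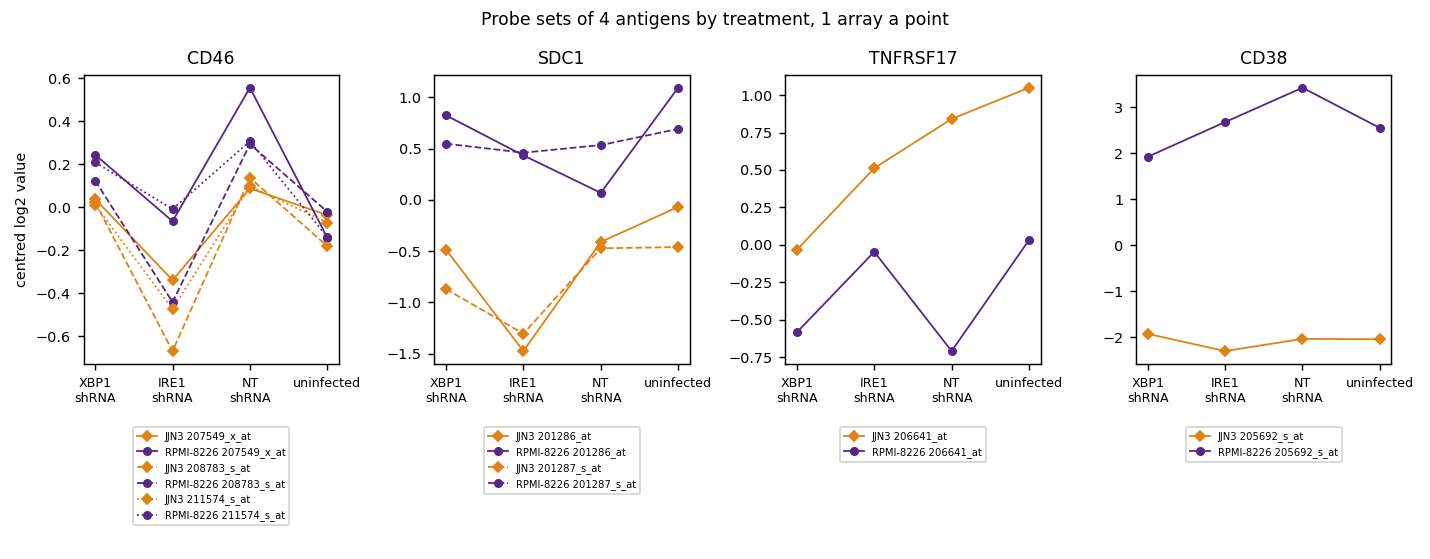
Centred log2 values of CD46, SDC1, TNFRSF17 and CD38 by treatment, 1 array a point, with diamonds for JJN3, circles for RPMI-8226 and 1 line style a probe set. The lines only join the arrays of a probe set. CD46 is lowest with IRE1 shRNA on 208783_s_at in both lines, SDC1 is lowest with IRE1 shRNA in JJN3, and TNFRSF17 is lowest with XBP1 shRNA in JJN3.

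The SDC1 differences between treatments are given by line, 1 array against 1. For both shRNAs against both controls, no difference between the lines in the effect of silencing was shown. The limma interaction had an adjusted p of 0.967 on 201286_at and 0.951 on 201287_s_at. It does not test the lines' difference for IRE1 shRNA or XBP1 shRNA alone. On SDC1 201286_at, IRE1 shRNA minus NT shRNA was -0.35 ± 0.27 (adjusted p = 0.783), made of -1.06 in JJN3 and 0.37 in RPMI-8226. On 201287_s_at it was -0.45 ± 0.19 (adjusted p = 0.5001), made of -0.83 in JJN3 and -0.07 in RPMI-8226. Without the RPMI-8226 array labelled IRE1 shRNA, the difference was -0.81 (adjusted p = 0.383) on 201286_at and -0.74 (adjusted p = 0.272) on 201287_s_at. The JJN3 array labelled IRE1 shRNA held the lowest SDC1 value of that line on both probe sets, and the uninfected array the highest in both lines. Against uninfected cells, IRE1 shRNA gave -1.03 ± 0.27 on 201286_at (adjusted p = 0.428), with -1.41 in JJN3 and -0.66 in RPMI-8226. XBP1 shRNA minus NT shRNA was 0.34 ± 0.27 on 201286_at and -0.19 ± 0.19 on 201287_s_at (adjusted p = 0.683 and 0.759), so the probe sets had opposite signs there.

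For TNFRSF17, XBP1 shRNA minus NT shRNA was -0.37 ± 0.24 (adjusted p = 0.569), with -0.87 in JJN3 and 0.13 in RPMI-8226. Against uninfected cells it was -0.85 ± 0.24 (adjusted p = 0.116), with -1.08 in JJN3 and -0.62 in RPMI-8226. IRE1 shRNA minus NT shRNA had opposite signs in the lines, -0.33 in JJN3 and 0.66 in RPMI-8226 (0.17 ± 0.24, adjusted p = 0.909). Without the RPMI-8226 array labelled IRE1 shRNA it was -0.07 (adjusted p = 0.98). TNFRSF17 with IRE1 shRNA exceeded that with XBP1 shRNA by 0.54 in JJN3 and by 0.54 in RPMI-8226, which did not pass the adjusted threshold (0.54 ± 0.24, adjusted p = 0.354). This difference was 0.30 (adjusted p = 0.807) without the RPMI-8226 array labelled IRE1 shRNA.

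For CD38, too, no difference between the lines in the effect of silencing was shown (interaction 0.61 ± 0.46, adjusted p = 0.969). XBP1 shRNA minus NT shRNA was -0.70 ± 0.31 (adjusted p = 0.365), with 0.11 in JJN3 and -1.50 in RPMI-8226, and the RPMI-8226 array with NT shRNA was the highest of the 8. Against uninfected cells the RPMI-8226 difference was -0.63 and that of JJN3 was 0.12. IRE1 shRNA minus NT shRNA was -0.51 ± 0.31 (adjusted p = 0.690), with -0.26 in JJN3 and -0.75 in RPMI-8226, and without the RPMI-8226 array labelled IRE1 shRNA it was -0.68 (adjusted p = 0.712). LY9 231124_x_at had the lowest adjusted p of the antigens for XBP1 shRNA against NT shRNA, -0.58 ± 0.16 (adjusted p = 0.124), with -0.45 in JJN3 and -0.71 in RPMI-8226. The XBP1 shRNA array was the lowest of its line for this LY9 probe set in both lines.

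For the remaining antigens the differences from NT shRNA were smaller than their intervals. Over SLAMF7, GPRC5D, CD27 and TNFRSF13B, XBP1 shRNA minus NT shRNA ran from -0.50 ± 0.30 on SLAMF7 222838_at (adjusted p = 0.532) to 0.10 ± 0.17 for GPRC5D (adjusted p = 0.878). IRE1 shRNA minus NT shRNA ran from -0.24 ± 0.30 on SLAMF7 222838_at (adjusted p = 0.887) to 0.11 ± 0.16 on SLAMF7 234306_s_at (adjusted p = 0.908). It ran, without the RPMI-8226 array labelled IRE1 shRNA, from -0.36 to 0.28 on the same SLAMF7 probe sets (adjusted p = 0.877 and 0.759). For CD27 the differences from NT shRNA were 0.07 ± 0.16 with XBP1 shRNA and -0.08 ± 0.16 with IRE1 shRNA. For TNFRSF13B they were -0.18 ± 0.21 with XBP1 shRNA and -0.06 ± 0.21 with IRE1 shRNA. The intervals of these probe sets against NT shRNA included 0. Against uninfected cells, XBP1 shRNA gave -0.71 ± 0.30 on SLAMF7 222838_at (limma adjusted p = 0.301), with -1.42 in JJN3 and 0 in RPMI-8226. On SLAMF7 234306_s_at it gave -0.47 ± 0.16 (adjusted p = 0.183), with -0.58 in JJN3 and -0.35 in RPMI-8226. Both 95% intervals lay below 0. SLAMF7 219159_s_at differed by -0.01 ± 0.14 there (adjusted p = 0.985). The 5 FCRL5 probe sets had differences from NT shRNA between -0.17 and 0.15 with XBP1 shRNA and between -0.18 and 0.13 with IRE1 shRNA. The other LY9 probe sets differed from NT shRNA by -0.02 and 0.02 with XBP1 shRNA and by 0.14 and -0.25 with IRE1 shRNA, for 215967_s_at and 210370_s_at in that order. Without the RPMI-8226 array labelled IRE1 shRNA, the IRE1 shRNA differences from NT shRNA lay between -0.50 and 0.20 for FCRL5 and were 0.15 and -0.22 for these LY9 probe sets. For CD27 that value was -0.12 and for TNFRSF13B 0.13.

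**Figure D4:**
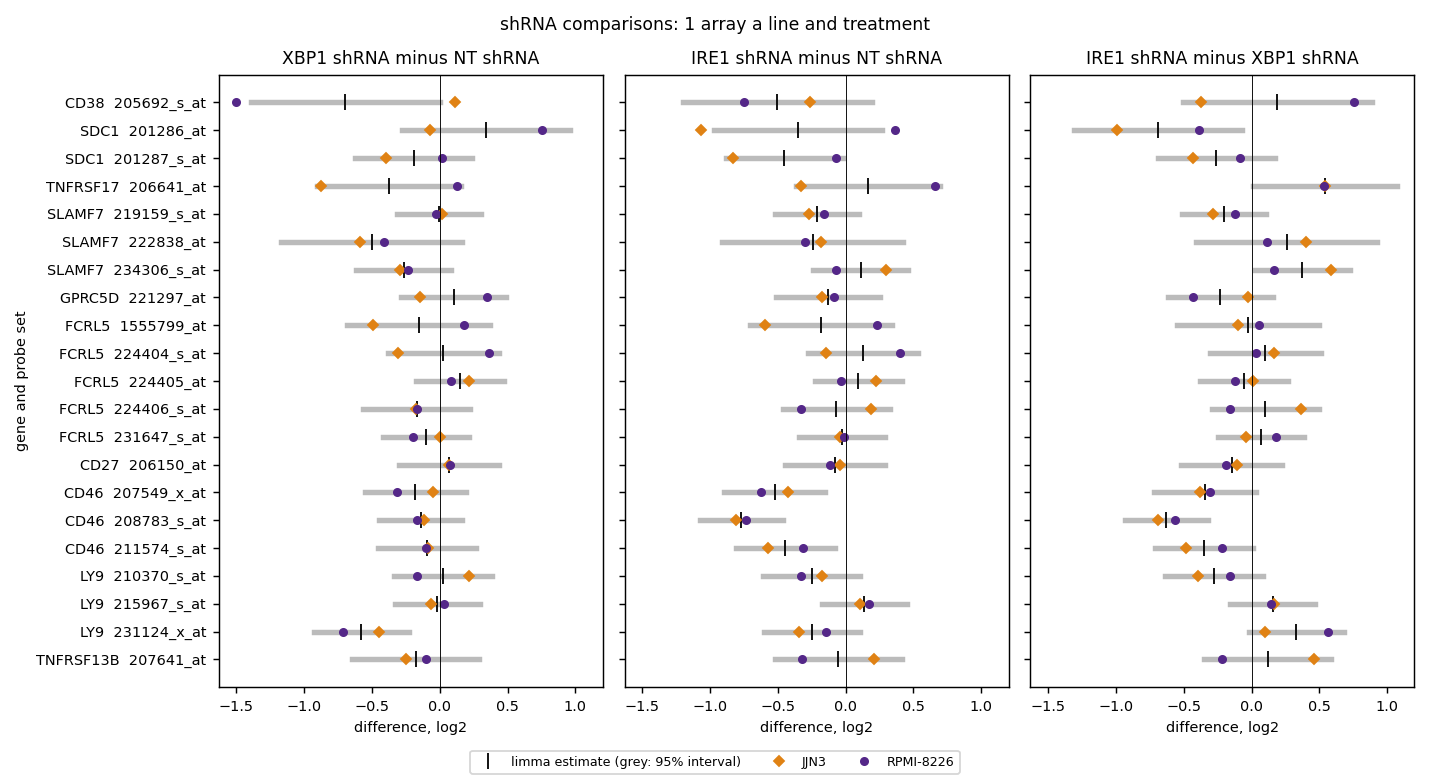
Differences between treatments for the 21 antigen probe sets (log2), XBP1 shRNA minus NT shRNA, IRE1 shRNA minus NT shRNA and IRE1 shRNA minus XBP1 shRNA from left to right. Diamonds are JJN3 and circles RPMI-8226 (1 array against 1), and the black tick with its grey bar is the limma estimate with its 95% interval. The 3 CD46 probe sets lie left of 0 in both lines in the middle panel. In the left panel the lines lie on the same side of 0 for 11 of the 21 probe sets. CD38 and SDC1 201286_at are among those with the lines on opposite sides.

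Pooling both shRNAs against both controls gave 0 of 21 probe sets past the threshold, against 0% of all, and 2 of the 21 had an unadjusted p below 0.05, against 9.30% of all. The lowest adjusted p there was that of LY9 231124_x_at, -0.38 ± 0.13 (adjusted p = 0.379), with -0.38 in JJN3 and -0.37 in RPMI-8226. NT shRNA minus uninfected holds the virus, the infection procedure and the non-targeting shRNA together. It gave 0 of 21 past the threshold, against 0% of all. Of the 21, 3 had an unadjusted limma p below 0.05, against 5.57% of all. The largest of these was SDC1 201286_at, at -0.68 ± 0.27 (adjusted p = 0.873), with -0.34 in JJN3 and -1.03 in RPMI-8226. The others were CD46 207549_x_at and CD46 208783_s_at, probe sets of the same gene. The test of whether the silencing effect differed between the lines gave 0 of 21, against 0% of all, with 1 of the 21 at an unadjusted p below 0.05, against 5.23% of all. That probe set was FCRL5 1555799_at, with silenced minus control at -0.46 in JJN3 and 0.33 in RPMI-8226 (difference -0.79 ± 0.20, adjusted p = 0.816). The interaction takes unlike treatments as replicates, and the splits by line given for SDC1, TNFRSF17 and CD38 are not shown to be differences between the lines. Silenced minus control for SDC1 201286_at was -0.74 in JJN3 and 0.05 in RPMI-8226, and the difference of these, -0.79 ± 0.56, had an adjusted p of 0.967. Leaving out the RPMI-8226 array labelled IRE1 shRNA left all these counts of antigens at 0.

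The extremes of each line give a plain view of the treatments. In JJN3 the array labelled IRE1 shRNA held the lowest value of the line for 10 of the 21 probe sets, XBP1 shRNA for 6, NT shRNA for 1 and uninfected for 4. In RPMI-8226 the IRE1 shRNA array was lowest for 8, XBP1 shRNA for 4, NT shRNA for 4 and uninfected for 5. The highest value lay on the NT shRNA array for 8 probe sets in JJN3 and 9 in RPMI-8226, and on the uninfected array for 7 and 6. In each line it lay on the XBP1 shRNA array for 3 and on the IRE1 shRNA array for 3. These counts carry no test, since probe sets of a gene share its transcript. The same counts over all probe sets are not given, so a trait of an array and one of the antigens cannot be told apart.

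Genes whose pattern over the arrays was most like that of an antigen were sought among 15042 probe sets with 1 symbol and an SD of at least 0.2 after each line's mean was subtracted. For CD38 they were ANKRD28 (Pearson correlation 0.989), ADAT3 (0.978) and TMEM168 (0.974). For SDC1 201286_at they were PRPS2 (0.995), SLC35F2 (0.991) and LIN52 (0.978). TNFRSF17 was nearest to SIAH2 (0.983), IPO5 (0.976) and FOXP2 (0.974), and SLAMF7 222838_at to EDNRB (0.977), HMGCLL1 (0.969) and ARHGAP9 (0.966). Each rests on 8 arrays and on the best of many probe sets, and the points share arrays and lines.

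Partners of the antigens were read from 13 lists with 133 measured genes, each gene by its single-symbol probe set with the highest SD. Between the lines, 42 of the 133 were higher and 57 lower in JJN3, which is 74.4% past the threshold, against 68.8% of all 19775 genes. In the list of syndecans and heparan sulfate enzymes, the relatives of SDC1 and the enzymes that build and edit its chains, 12 of 19 genes were higher and 2 lower in JJN3. The syndecan SDC2 was higher by 7.32, and the extracellular sulfatases SULF2 and SULF1, which remove sulfate from the chains, by 5.57 and 5.01 (adjusted p = 8.17e-09, 2.41e-09 and 5.27e-08). The sulfotransferase HS2ST1 was higher by 2.07 (adjusted p = 3.75e-07). In the list of NAD ectoenzymes and the adenosine pathway, where CD38 acts, 6 of 9 were higher and 3 lower in JJN3. NT5E (CD73), which makes adenosine from AMP, was lower, at -3.02, and DPP4, which binds adenosine deaminase, at -2.08 (adjusted p = 8.43e-07 and 4.56e-07). NAMPT, an enzyme of NAD synthesis, was higher by 2.21 and PECAM1, a proposed CD38 partner, by 1.44 (adjusted p = 2.75e-05 and 0.00171). For NAMPT the mean of its probe sets had the opposite sign, -0.10.

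In the BAFF and APRIL receptor axis with the CD27 partners, 1 of 10 genes was higher and 7 lower in JJN3. TRAF3, an adaptor that restrains the alternative NF-kB pathway, was the one higher, by 4.91 (adjusted p = 2.09e-08), and TNFSF13, which encodes APRIL, was lower, at -2.05 (adjusted p = 3.08e-05). The adaptors TRAF1 and TRAF5 were lower, at -1.78 and -1.54 (adjusted p = 0.000111 and 9.99e-06). Of gamma-secretase, which sheds BCMA, and other sheddases, 4 of 7 were higher and 2 lower, with the subunit NCSTN higher by 1.49 (adjusted p = 1.72e-05) and PSENEN lower, at -0.72 (adjusted p = 0.000316). Of the SLAM relatives and adaptors, 2 of 9 were higher and 6 lower, among them the adaptor SH2D1B higher by 1.21 and the receptor CD48 lower, at -1.06 (adjusted p = 0.00312 and 5.37e-05).

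The Fc receptor-like and Fc gamma relatives had 1 of 7 higher (FCRLB, 0.87, adjusted p = 8.64e-05) and 2 lower (FCRLA, -0.92, adjusted p = 0.000375, and FCRL2, -0.35, adjusted p = 0.0219). Of the GPRC5 relatives, 2 of 3 were lower, GPRC5C at -0.77 and GPRC5B at -0.63 (adjusted p = 0.000332 and 0.00642). Complement regulators and CD46 partners had 3 of 7 higher and 2 lower, with the complement inhibitors CLU and CD59 higher by 2.35 and 0.80 (adjusted p = 1.60e-07 and 0.00393). Among 27 other surface molecules of plasma and myeloma cells, 11 were higher and 11 lower in JJN3. The tetraspanin CD81 was higher by 4.61 and the death receptor FAS by 2.57, and the costimulatory ligand CD86 was lower, at -3.45 and the receptor IL6R at -2.79 (adjusted p = 4.77e-08, 1.98e-07, 1.18e-06 and 4.42e-07).

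Markers of other cell types were mostly lower in JJN3 or did not pass. All genes by their probe set of highest SD also had a negative median, -0.23, and 68.8% of them passed. The median difference was -0.50 for B cell, -0.29 for T and NK cell, -0.26 for myeloid and -0.42 for stromal markers. In that order, 63.6%, 55.6%, 50% and 85.7% of the measured markers passed. They counted 1 of 11 higher and 6 lower for B cells, 1 of 9 higher and 4 lower for T and NK cells, 0 of 8 higher and 4 lower for myeloid cells, and 0 of 7 higher and 6 lower for stromal cells. CD37, a B cell tetraspanin, was lower, at -1.72 (adjusted p = 4.06e-05) and CD247, the zeta chain of the T cell receptor, was higher by 6.46 (adjusted p = 2.45e-09). The other CD247 probe set differed by 0.04 (adjusted p = 0.783). The medians of these lists ran from -0.34 to -0.03 over the JJN3 arrays and from 0.01 to 0.34 over the RPMI-8226 arrays. With centred values none can be called absent, and their part in the antigen differences was not tested. With quantile normalization or array medians set to 0, the lower calls became 1 of 8 for myeloid cells, 4 of 7 for stromal cells, 1 of 7 for the Fc receptor-like relatives and 0 of 7 for complement regulators.

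**Figure D5:**
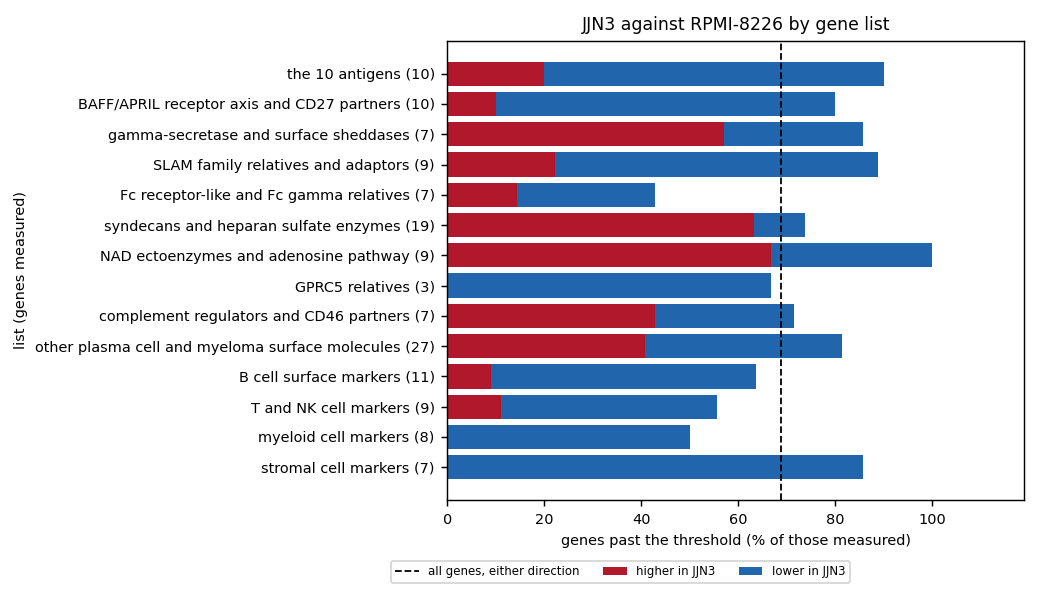
Percent of the measured genes of each list that passed the threshold between JJN3 and RPMI-8226 (adjusted p below 0.05), in red for higher and blue for lower in JJN3, each gene by its probe set of highest SD. The number of measured genes stands in brackets, and the dashed line is the 68.8% of all genes. The syndecan and NAD lists hold more genes higher than lower in JJN3. The BAFF and APRIL, SLAM, B cell and stromal lists are among those with more genes lower. Over all probe sets, a unit unlike the genes of the bars, 22.8% were higher and 33.3% lower. The split of all genes by direction is not given.

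Between treatments, few list genes passed. For XBP1 shRNA against NT shRNA, 1 of 133 was higher and 4 lower, against 1.87% of all genes in either direction. TFRC, the transferrin receptor, was higher by 1.06 ± 0.18 (adjusted p = 0.0346), with 0.88 in JJN3 and 1.25 in RPMI-8226. Another TFRC probe set passed at 0.999, and the other 3, between -0.16 and 0.32, did not. IL6ST, the signalling chain of the IL6 receptor, was lower, at -1.32 ± 0.25 (adjusted p = 0.0468), and 3 more of its probe sets passed, at -1.29, -0.98 and -0.93. The other IL6ST probe sets did not, at -0.70, 0.09 and 0.02. CD28, a costimulatory receptor, was lower, at -0.85 ± 0.15 (adjusted p = 0.0364), HLA-E at -0.73 ± 0.14 and the sheddase ADAM17 at -0.89 ± 0.17 (adjusted p = 0.0481 for both). The other probe sets of these genes did not pass, at -0.53 and -0.62 for CD28, -0.33 and -0.36 for HLA-E, and -0.68 and -0.87 for ADAM17. The count of list genes past the threshold was 2 with array medians set to 0, 1 with quantile normalization, and from 0 to 3 when each array was left out in turn, with 0 without the NT shRNA array of either line.

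For IRE1 shRNA against NT shRNA, 0 of the 133 list genes passed in limma, against 0.0354% of all genes, and the lowest adjusted p was that of ADA, at 0.104. For IRE1 shRNA against XBP1 shRNA, 1 was higher and 2 lower, against 2.86% of all genes. ADA, adenosine deaminase, was lower, at -1.07 ± 0.14 (adjusted p = 0.0145), with -1.18 in JJN3 and -0.97 in RPMI-8226, and its other probe set was lower, at -1.03. EXT2, a polymerase of heparan sulfate, was lower, at -1.09 ± 0.22 (adjusted p = 0.0453), with -1.60 in JJN3 and -0.59 in RPMI-8226. CD47, the do-not-eat-me signal, was higher by 1.12 ± 0.23 on 226016_at (adjusted p = 0.0465), while its other 6 probe sets did not pass. Without the RPMI-8226 array labelled IRE1 shRNA, 2 list genes passed, EXT2 among them but neither ADA nor CD47, and without that of JJN3, 0 passed.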

How the data were processed

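RNA of 2 cell lines under 4 treatments was measured on 8 arrays. The deposited log2 values were made by the authors with RMA, per the submitters' processing notes, and the version is not given in the sources used here. The log base and the centring are not stated either: over the arrays, the median of each of the 54675 probe sets was 0 within 1e-05, as read from the values. No signal over background was available, so no filter on dim probe sets was possible. The 62 control probe sets were left out, and 54613 were fitted with limma 3.58.1 (R 4.3.3), eBayes and 2-sided tests. P-values were adjusted by Benjamini-Hochberg over all of them, at 0.05, with the cell line as a block, or treatment for the line comparison. The pairing comes from the cell line in the labels. Deviations from the treatment means correlated within a line between 0.897 and 0.929. None of the 28 array pairs held identical values (0 pairs). The fit was tested on simulated data.

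The members and gene lists were chosen with earlier results of these data known. All antigens are named, with array values for the probe set of highest SD and for others past the threshold. Of each list, up to 4 genes past the threshold in a comparison are named, by size. Other probe sets and patterns are given by range. Alternatives were the normalization, block, filter, unit of the fit, variance model, control and arrays left out.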

Additional observations from a re-analysis of the deposited data

Results flagged for a closer look

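In 42 groups of 4 arrays (21 probe sets in 2 lines), 3 held an array far from the other 3 by Dixon's ratio, and chance gives about 1 in 20. SLAMF7 219159_s_at read -0.48 on the JJN3 array labelled IRE1 shRNA, against -0.24 to -0.20 on the other JJN3 arrays. FCRL5 224404_s_at read -0.19 on the RPMI-8226 array with NT shRNA, against 0.18 to 0.21 on the other RPMI-8226 arrays. FCRL5 224405_at read -0.10 on the JJN3 array with NT shRNA, against 0.11 to 0.14 on the other JJN3 arrays.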

How the results depend on the processing

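In the comparisons of silencing or virus, the count of antigens past the threshold was 0 under every alternative run, and the lowest adjusted p among them was 0.0537. Between the lines it was 12 of 21 probe sets, 11 without the replicate block and from 11 to 12 when each array was left out, and 7 of 10 genes with the mean of each gene's probe sets, against 65.7% of all genes. Under that mean SLAMF7 turned to -0.017 (adjusted p = 0.892), FCRL5 stood at -0.11 (adjusted p = 0.234), and NAMPT turned to -0.10. SLAMF7 222838_at also lost its call without the replicate block (adjusted p = 0.062).

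The 5 list genes called for XBP1 shRNA against NT shRNA became 0 without the replicate block, 1 with quantile normalization, 2 with array medians at 0, 0 with the mean of probe sets, 2 with only the 4 arrays compared, and from 0 to 3 when an array was left out. The 3 called for IRE1 shRNA against XBP1 shRNA became 0 without the replicate block, 1 with quantile normalization, 1 with array medians at 0, 5 without the probe sets of lowest SD, and from 0 to 3 when an array was left out. The cause was not tested. These list alternatives were chosen after seeing the data.

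Over all probe sets, the 660 calls for XBP1 shRNA against NT shRNA became 0 without the replicate block, 345 with quantile normalization, 421 with only the 4 arrays compared and 1151 against uninfected cells. With each array left out they ran from 0 (NT shRNA of RPMI-8226) to 342, with 6 for NT shRNA of JJN3. The 1035 calls for IRE1 shRNA against XBP1 shRNA became 0 without the block, 452 with quantile normalization, 1 without the JJN3 array labelled IRE1 shRNA and 182 without that of RPMI-8226. The 10 calls for IRE1 shRNA against NT shRNA became 0 without the block, 31 without the probe sets of lowest SD and 38 without the RPMI-8226 array labelled IRE1 shRNA. The 0 calls for silenced against control became 14 with quantile normalization and 47 without that RPMI-8226 array. Higher calls between the lines were 40.6% of calls, 48.7% with quantile normalization and 50.6% with array medians at 0. The interaction without the block was not run, since line is part of it. With 1 array for each line and treatment, precision is limited by their number.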

Other observations

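Among the list genes, the lowest adjusted p for both shRNAs against both controls was that of ITGB7, an integrin chain of homing receptors on myeloma cells. Silenced minus control for ITGB7 was -0.56 ± 0.11 (adjusted p = 0.156), with -0.64 in JJN3 and -0.48 in RPMI-8226. IL6R stood at -0.88 ± 0.18 (adjusted p = 0.176), with -1.10 in JJN3 and -0.66 in RPMI-8226. Neither passed the threshold.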
